A study of Mus musculus with 10 samples.

Results

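The 6 libraries labelled as medulloblastoma, of 10 mouse libraries in all, were split by their level of Mki67, the gene of the Ki-67 protein that marks dividing cells. The libraries were chosen by the Mki67 count divided by the library total, given per 1000000 counts (CPM). NKP 3 (11.98 CPM), AKP 3 (38.3 CPM) and AKP 2 (47.5 CPM) lay above the upper limit of 10 CPM and form the Mki67-high side. AKP 1 (0.545 CPM), NKP 1 (0.617 CPM) and NKP 2 (0.710 CPM) lay below the lower limit of 1 CPM and form the Mki67-low side, with 7, 8 and 13 Mki67 counts. No library fell between the limits. Because measured values of these libraries chose the sides, the comparison of the sides is a description with no test, and Mki67 is not used again as a result.

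Bulk RNA was sequenced from cerebellum or from medulloblastoma, a tumour of the cerebellum. All 10 libraries carry the Ptch+/- allele, which leaves 1 intact copy of Ptch1, the receptor that restrains Sonic hedgehog (SHH) signalling. The NKP libraries have the genotype Nestin-Cre Kmt2dfl/+ Ptch+/- and are all from 4 months of age, with NKP 1 and NKP 2 labelled male and NKP 3 female. The AKP libraries have the genotype AtohI-Cre Kmt2dfl/+ Ptch+/-, with AKP 1 and AKP 2 labelled male at 2 months and AKP 3 labelled female at 4 months. The remaining 4 libraries, labelled Ptch, are control cerebellum with Ptch+/- alone, Ptch 1 (male) and Ptch 2 (female) at 4 months and Ptch 3 (female) and Ptch 4 (male) at 2 months. Nestin is expressed in neural stem and progenitor cells, and Atoh1 in granule neuron precursors, so the Cre lines act in different, overlapping cell populations. Each side of the split holds both tumour genotypes and both ages. The labels do not say whether libraries came from separate animals, or whether tissue was pooled.

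Granule neuron precursors divide in the outer layer of the young cerebellum under SHH, then leave the cell cycle, migrate inward and mature into granule neurons. SHH-type medulloblastoma arises from these precursors and keeps much of their gene expression, including Atoh1, Mycn and the GLI factors. Genes of DNA synthesis are switched on by E2F factors before S phase, and genes of mitosis later through promoter elements called the cell cycle genes homology region (CHR) and the CCAAT box, bound by the DREAM and MuvB complexes and by NF-Y.

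Promoter sequences illustrate these classes among genes that differed between the sides. The windows run from 250 bases before to 50 bases after the first listed transcription start, from RefSeq on GRCm38.p6. They are shown for Top2a, the topoisomerase that untangles sister chromosomes (chr11:99024140-99024439, minus strand), Cdk1, the mitotic kinase (chr10:69352863-69353162, minus strand), Ube2c, an anaphase ubiquitin-conjugating enzyme (chr2:164769679-164769978, plus strand), and Mcm6, a subunit of the replicative helicase (chr1:128359656-128359955, minus strand). Capitals mark matches, on either strand, to the CHR (TTTGAA), the CCAAT box (CCAAT) or an E2F element (TTTNGCGC), and adjoining capitals can belong to overlapping matches.
Top2a: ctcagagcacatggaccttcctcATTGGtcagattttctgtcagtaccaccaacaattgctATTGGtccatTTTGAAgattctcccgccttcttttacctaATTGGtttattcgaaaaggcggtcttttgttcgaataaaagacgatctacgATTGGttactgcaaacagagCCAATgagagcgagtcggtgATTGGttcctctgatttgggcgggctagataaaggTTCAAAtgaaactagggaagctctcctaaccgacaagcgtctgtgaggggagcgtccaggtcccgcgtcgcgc
Cdk1: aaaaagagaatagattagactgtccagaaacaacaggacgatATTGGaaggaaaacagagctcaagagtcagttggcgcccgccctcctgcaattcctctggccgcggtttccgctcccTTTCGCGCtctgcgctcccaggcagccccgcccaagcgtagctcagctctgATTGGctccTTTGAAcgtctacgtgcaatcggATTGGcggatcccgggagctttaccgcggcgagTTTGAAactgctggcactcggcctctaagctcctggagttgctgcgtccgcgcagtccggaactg
Ube2c: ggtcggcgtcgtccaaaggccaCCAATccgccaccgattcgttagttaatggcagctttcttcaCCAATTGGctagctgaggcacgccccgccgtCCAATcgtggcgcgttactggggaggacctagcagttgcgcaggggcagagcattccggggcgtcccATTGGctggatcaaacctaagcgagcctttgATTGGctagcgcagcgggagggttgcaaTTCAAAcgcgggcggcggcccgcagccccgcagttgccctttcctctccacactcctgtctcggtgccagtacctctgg
Mcm6: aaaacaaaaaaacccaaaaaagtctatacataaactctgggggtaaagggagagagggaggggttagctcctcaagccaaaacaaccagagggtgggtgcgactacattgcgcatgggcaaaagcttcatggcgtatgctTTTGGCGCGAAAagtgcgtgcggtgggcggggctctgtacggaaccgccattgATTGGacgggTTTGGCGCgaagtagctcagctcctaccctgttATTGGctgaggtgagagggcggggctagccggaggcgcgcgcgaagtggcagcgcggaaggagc

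The Top2a window held 2 CHR matches, at 179 and 23 bases before the start, with 6 CCAAT matches. That of Cdk1 held 2 CHR matches at 71 and 15 bases before the start, 3 CCAAT matches and 1 E2F match. The Ube2c window held 1 CHR match at 29 bases before the start and 6 CCAAT matches. Mcm6, a gene of S phase, had 3 E2F matches, 2 CCAAT matches and none to the CHR. Across the lists described below, the CHR was found in 27 of 36 promoters of mitosis genes (75%) and in 4 of 35 of DNA replication genes (11.4%), against 1411 of 12028 promoters of all genes measured (11.7%). The E2F element was found in 9 of 35 replication promoters (25.7%), 2 of 36 mitosis promoters (5.56%) and 275 of all 12028 (2.29%). The CCAAT box was found in 72.2% of mitosis, 62.9% of replication and 38.6% of all promoters. These are matches of letters and not measured binding sites.

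Library totals ran from 12300430 to 19348991 counts, and 15250 genes had at least 10 counts in 3 or more of the 6 tumour-labelled libraries. Levels below are CPM on a scale normalized by trimmed means (TMM) over all 10 libraries. Several libraries stood apart from their labels. Kmt2d, a histone H3 lysine 4 methyltransferase and the floxed gene, read 33.1, 46.8 and 57.9 CPM in the libraries labelled NKP 1 to 3 and 34.2, 41.3 and 43.5 CPM in AKP 1 to 3, against 52.5 to 68.5 CPM in the 4 Ptch libraries. Kmt2d lies on chromosome 15 (98831669 to 98874077, RefSeq GRCm38.p6). The library labelled NKP 3 was thus within the Ptch range, and the sides of the split overlapped. Whole-gene counts do not show how much of the floxed copy was deleted. Over all genes NKP 3 was closer to Ptch 4 (chi-square per degree of freedom 3.85) than to NKP 1 (17.2) or NKP 2 (15.5), while NKP 1 was closest to AKP 1 (3.53). No pair of libraries agreed within counting noise, for which this ratio is near 1.

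Y-linked RNA (the sum of Ddx3y, Eif2s3y, Uty and Kdm5d) was present at 55.1 to 86.9 CPM in all 6 tumour-labelled libraries, also in NKP 3 (86.9 CPM) and AKP 3 (68.3 CPM), which are labelled female. The Ptch libraries split by age, with 0.385 and 0.465 CPM at 4 months (Ptch 1, Ptch 2) but 99.1 and 96.8 CPM at 2 months (Ptch 3, Ptch 4), which goes against the sex labels of Ptch 1 and Ptch 3. Libraries are called by their labels throughout. Results of the split are therefore also given without NKP 3 and AKP 3.

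The name of a cycling against a non-cycling group was compared with the division genes themselves. The summed level of 44 genes of mitosis and the spindle checkpoint was 282 to 292 CPM on the Mki67-low side and 392, 776 and 916 CPM in NKP 3, AKP 3 and AKP 2. Of the 44 genes, 19 were under 1 CPM in all 3 Mki67-low libraries, but none was at 0 in all 3. Atoh1, the defining transcription factor of granule neuron precursors, read 0, 0.221 and 0 CPM in NKP 1, NKP 2 and AKP 1 (0, 4 and 0 counts), below each of the 4 Ptch cerebellum libraries (5.70 to 16.4 CPM). On the Mki67-high side NKP 3 (3.66 CPM) and AKP 3 (5.45 CPM) were below the Ptch libraries as well, and AKP 2 (5.78 CPM) was within their range. The summed precursor list did not order the sides, at 1490 to 1590 CPM in the Mki67-low libraries and 1499 to 1665 CPM in the Mki67-high ones. The sides are named here by Mki67 alone. In bulk tissue, fewer cells of a type and less RNA of that type per cell cannot be told apart.

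Between the sides, 432 of 15250 genes (2.83%) were at least 2-fold higher on the Mki67-high side with no overlap between its 3 libraries and the 3 Mki67-low libraries. A further 62 genes (0.407%) were at least 2-fold lower. At any size of difference, 1545 genes (10.1%) were higher without overlap and 1341 (8.79%) lower. Each list count below is to be read against these shares of all genes. The median log2 difference of all genes was -0.01. Of the 432 higher genes, 106 reached the minimum count only through the Mki67-high side, so they could only be higher. Without NKP 3 the counts were 726 higher and 176 lower genes, and without NKP 3 and AKP 3, which leaves AKP 2 alone on the high side, 934 and 427.

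The 3 Mki67-high libraries were not equal. Over the 432 genes, the median log2 level above the Mki67-low mean was 1.23 in NKP 3, 2.07 in AKP 3 and 2.22 in AKP 2. NKP 3 was the lowest of the 3 at 377 of the 432 genes, and AKP 2 the highest at 319. The Ptch libraries, outside the rule, lay at 1.41 and 1.49 at 2 months and at 2.49 and 2.51 at 4 months. The choice of these genes set the Mki67-low libraries below the Mki67-high ones in advance. Choosing genes by low values there can also favour higher Ptch values, so this order is a description only. At the median the Mki67-low libraries were the lowest of the whole series, and the control cerebellum at 4 months the highest.

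Genes of mitosis gave the widest list difference. Of 44 measured, 41 were higher without overlap (38 at least 2-fold), none was lower without overlap, and 3 overlapped (Bub3, Pttg1 and Anln). The median log2 difference was 3.19, and 3.98 without NKP 3 and AKP 3. A total of 11 of the 44 had passed the filter through the Mki67-high side alone.

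Top2a read 1.22, 0.993 and 0.328 CPM in NKP 1, NKP 2 and AKP 1 and 10.5, 49.6 and 42.0 CPM in NKP 3, AKP 2 and AKP 3, a log2 difference of 5.11. As for other genes with few counts on the low side, the size depends on the prior count. Every Mki67-high library was above every Mki67-low one, and NKP 3 stood well below the AKP pair. Ube2c, the anaphase enzyme, read 0.408, 0.110 and 0.820 CPM against 4.86, 31.5 and 18.9 CPM (log2 difference 5.10). Aurkb, the kinase of the chromosomal passenger complex, was at 0.163, 0 and 0.164 CPM on the low side and at 2.02, 11.05 and 6.33 CPM on the high side. Knl1, a kinetochore scaffold, had no counts in NKP 1 and NKP 2 and 2 in AKP 1, and 2.24, 5.63 and 5.38 CPM on the high side; with so few counts no fold is given. These mitotic genes shared 1 order of libraries on the high side, with NKP 3 lowest and AKP 2 highest. Bub3, a spindle checkpoint protein, showed no such order, at 98.4 to 110 CPM on the low side and 99.3 to 127 CPM on the high side.

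**Figure D1:**
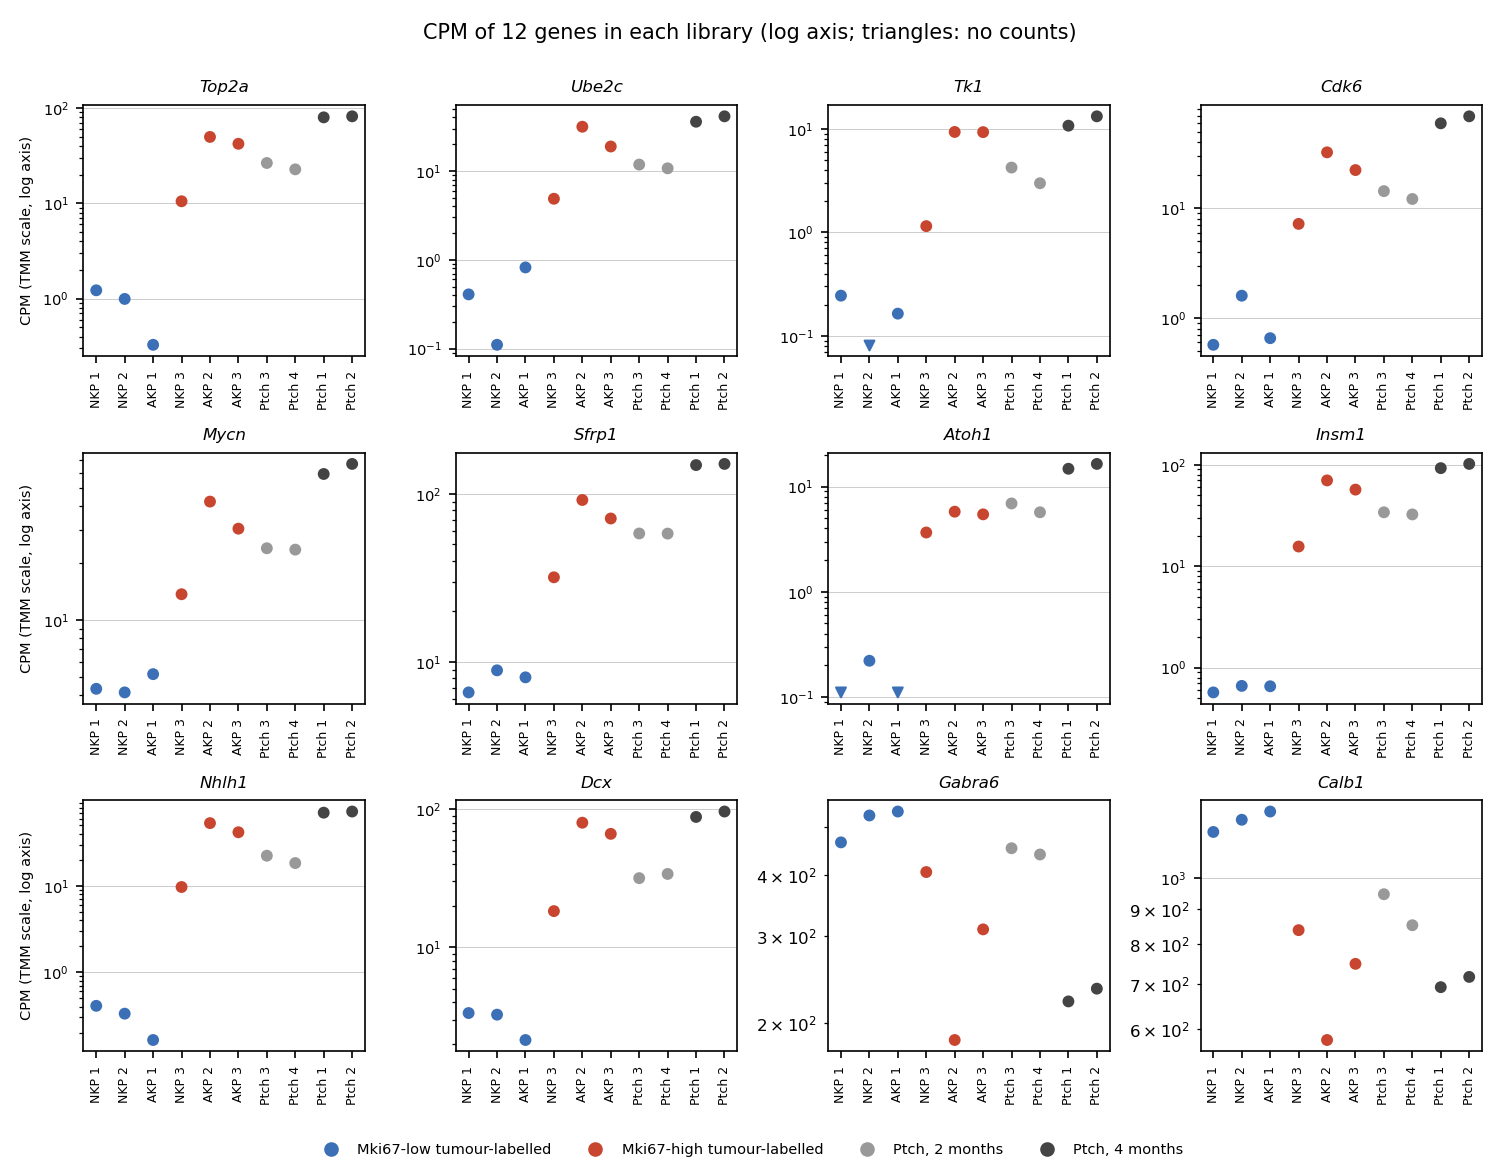
CPM of 12 genes (log axis) in each of the 10 libraries, with 1 point per library, Mki67-low in blue, Mki67-high in red, Ptch in grey (2 months) and dark grey (4 months), and triangles for libraries with no counts. Division and precursor genes such as Top2a, Insm1 and Nhlh1 are lowest in the 3 Mki67-low libraries, and Gabra6 and Calb1 are lower in all 3 Mki67-high libraries than in any Mki67-low one.

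Genes of DNA synthesis showed a smaller difference. Of 42 measured genes, 28 were higher without overlap (20 at least 2-fold), none was lower without overlap, and the median log2 difference was 0.91 (1.43 without NKP 3 and AKP 3). Tk1, the thymidine kinase of S phase, read 0.245, 0 and 0.164 CPM in NKP 1, NKP 2 and AKP 1 and 1.15, 9.32 and 9.28 CPM in NKP 3, AKP 2 and AKP 3. Uhrf1, whose protein is needed for DNA methylation to be copied onto new strands, read 0.652, 0.772 and 0.902 CPM against 5.46, 25.1 and 19.1 CPM (log2 difference 4.06). Mcm6, whose promoter is shown above, was at 4.51 to 6.11 CPM on the low side and 15.8, 50.05 and 45.4 CPM on the high side. Cdc6, a loader of the helicase, differed by 3.24 and Chaf1b, a subunit of the histone chaperone CAF-1, by 3.99 on the log2 scale. Of the 42 genes, 4 had passed the filter through the Mki67-high side alone and could only be higher. Tk1, Cdc6 and Chaf1b, with under 10 counts in each Mki67-low library, were among them. The list median was 0.74 among genes with at least 10 counts in all 6 libraries. Pcna, the sliding clamp also used in repair, overlapped between sides (82.4 to 84.7 against 84.3, 118 and 149 CPM).

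In homologous recombination and the Fanconi pathway, which repair broken or crosslinked DNA, 10 of 18 measured genes were higher without overlap (9 at least 2-fold) and none lower, with a median of 1.23. Of the 18, 4 had passed the filter only through the Mki67-high side and could only be higher. The median was 0.89 among genes with at least 10 counts in all 6 libraries. Rad54b, a recombination motor protein, differed by 2.41 on the log2 scale. Among cyclins, kinases and E2F factors of the G1 to S transition, 10 of 19 were higher without overlap (8 at least 2-fold), with a median of 0.35. That median was 0.18 among genes with at least 10 counts in all 6 libraries, and 2 of the 19 had passed only through the high side. Cdk6, the kinase partner of D-type cyclins, read 0.571, 1.60 and 0.656 CPM on the low side and 7.21, 32.4 and 22.3 CPM on the high side (log2 difference 4.25). Its partner Ccnd2, a cyclin induced in granule neuron precursors, was at 7.05 to 12.9 CPM against 28.7, 82.6 and 70.2 CPM. Ccnd1 differed far less, at 47.8 to 57.6 CPM against 60.1 to 68.9 CPM. Of 17 CDK inhibitors and p53 targets, 4 were higher without overlap, Cdkn2b, Trp53, Btg2 and Mdm4, none was lower, and the median was 0.24 (0.13 without AKP 2). Trp53 itself differed by 0.87 and Btg2, an antiproliferative p53 target, by 0.58 on the log2 scale.

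**Figure D2:**
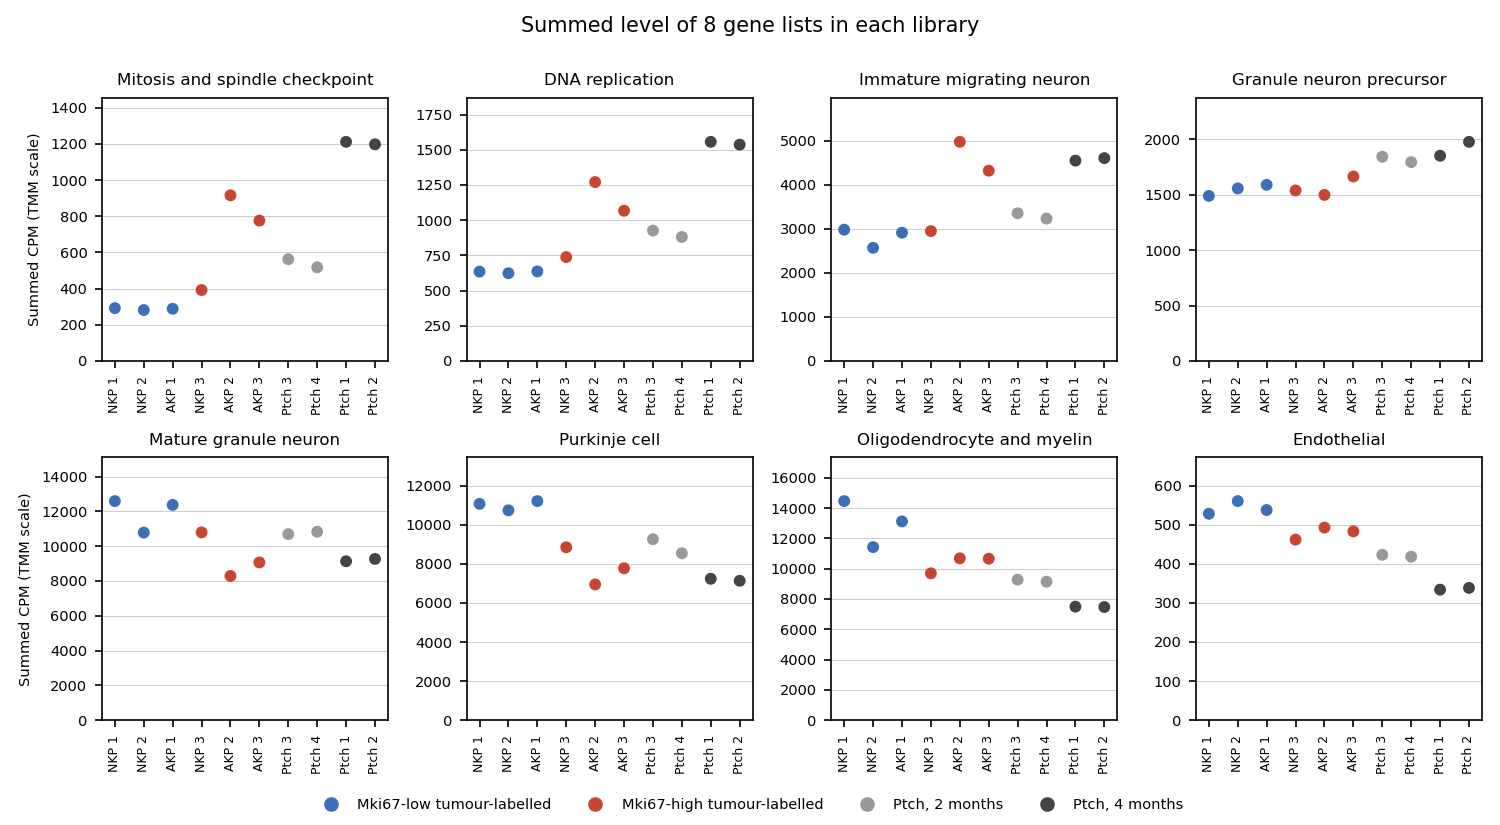
Summed CPM of 8 gene lists in each library (linear axis from 0), with 1 point per library, Mki67-low in blue, Mki67-high in red and Ptch in grey (2 months) and dark grey (4 months). The mitosis sum is 282 to 292 CPM in the Mki67-low libraries, 392 CPM in NKP 3 and 776 and 916 CPM in AKP 3 and AKP 2, while sums of the Purkinje cell list are lower in the Mki67-high libraries.

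The list of SHH pathway genes and targets was mixed. Of 20 genes, 7 were higher without overlap (6 at least 2-fold), 1 was lower without overlap (Pdlim3, -0.55) and 12 overlapped, with a median log2 difference of 0.31. Atoh1, 1 of the 7, had passed the filter only through the Mki67-high side and could only be higher. The median was 0.14 without AKP 1, 0.19 without NKP 1 and 0.20 without AKP 2, 0.13 among the 4-month libraries and 0.72 within AKP. Gli1, a transcription factor and direct target of the pathway, read 10.3, 11.97 and 10.8 CPM in NKP 1, NKP 2 and AKP 1 and 17.3, 26.1 and 24.5 CPM in NKP 3, AKP 2 and AKP 3 (log2 difference 1.01). The Ptch cerebellum libraries had 21.3 to 45.0 CPM. Mycn, the SHH-induced MYC family factor of precursors, was at 4.14 to 5.16 CPM against 13.7, 42.2 and 30.3 CPM (2.51). Sfrp1, a secreted WNT antagonist, was at 6.604 to 8.93 CPM against 31.9, 91.9 and 71.4 CPM (2.91).

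Ptch1, both the deleted allele of the model and an SHH target, went another way. It read 85.4, 100.03 and 90.5 CPM on the low side and 110, 55.5 and 65.5 CPM on the high side, so the sides overlapped with NKP 3 highest of all 6. The low values of AKP 2 and AKP 3 were below all 4 Ptch libraries (74.1 to 103 CPM). Smo, Gas1, Boc and Cdon, which receive or pass on the SHH signal, each differed by at most 0.20 in size on the log2 scale and overlapped.

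Precursor and early neuron genes differed in part. In the granule neuron precursor list 11 of 20 genes were higher without overlap (7 at least 2-fold), 1 was lower, and the median was 0.40. Insm1, a zinc finger factor of dividing neuronal progenitors, read 0.571, 0.662 and 0.656 CPM in NKP 1, NKP 2 and AKP 1 and 15.6, 70.0 and 56.9 CPM in NKP 3, AKP 2 and AKP 3 (log2 difference 5.84). Atoh1, which passed the filter only through the high side and could only be higher, was at 3.66, 5.78 and 5.45 CPM there. Against 4 counts over the low side no fold is given. Barhl1, a homeobox gene downstream of Atoh1, was at 10.7 to 15.6 CPM against 33.5, 101 and 84.0 CPM (2.34). Sox11, an early neuronal factor, differed by 3.57. Pax6, Zic1, Zic2 and Zic5, which granule neurons keep as they mature, overlapped between the sides.

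In the list of immature, migrating neurons 12 of 22 genes were higher without overlap (7 at least 2-fold), none was lower without overlap, and the median was 0.44. Nhlh1, a helix-loop-helix factor of newborn neurons, was at 0.408, 0.331 and 0.164 CPM (5, 6 and 2 counts) against 9.67, 53.1 and 41.6 CPM. It passed the filter only through the high side, so it could only be higher, and its log2 difference of 6.32 depends on the prior count. Dcx, the microtubule protein of migrating neurons, was at 2.13 to 3.34 CPM against 18.3, 80.0 and 66.4 CPM (3.98). Draxin, an axon guidance protein, differed by 5.64, and Dcc, the netrin receptor, by 2.67. Igfbpl1, a secreted protein of immature neurons, was at 0.882 to 1.72 CPM against 20.1, 153 and 112 CPM (5.70). The other 10 genes of the list overlapped, and its summed level in NKP 3 (2950 CPM) was below that in NKP 1 (2982 CPM). Of 16 neural stem cell and Notch genes, 2 were higher without overlap (Nes, 0.32, and Msi1) and 2 lower (Sox2, -0.36, and Prom1), with a median of 0.02. Both shares were close to those of all genes (10.1% higher and 8.79% lower).

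Markers of mature cerebellar cells were lower on the Mki67-high side by smaller amounts, and none reached 2-fold. Of 21 mature granule neuron genes, 6 were lower and 1 higher without overlap, with a median of -0.37 (-0.25 without AKP 2). Gabra6, the granule neuron GABA-A receptor subunit, read 465, 528 and 538 CPM in NKP 1, NKP 2 and AKP 1 and 405, 184 and 310 CPM in NKP 3, AKP 2 and AKP 3 (log2 difference -0.84). Of 15 Purkinje cell genes, 9 were lower and none higher without overlap, with a median of -0.56 (-0.87 without NKP 3 and AKP 3). Calb1, the Purkinje cell calcium-binding protein, read 1170 to 1252 CPM on the low side and 839, 578 and 748 CPM on the high side (-0.77). Car8, which regulates the IP3 receptor in Purkinje cells, differed by -0.83. Of 22 presynaptic genes, 2 were lower and 1 higher without overlap, with a median of -0.13, where the share of lower genes was close to that of all genes.

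Oligodendrocyte, astrocyte and endothelial genes were lower in most members, while oligodendrocyte precursor genes were split evenly and microglia genes, given further on, were mostly higher. Of 18 oligodendrocyte genes, 10 were lower without overlap and none higher, with a median of -0.39. Ugt8a, which makes the myelin lipid galactosylceramide, read 114, 92.6 and 107 CPM on the low side and 59.0, 62.8 and 73.3 CPM on the high side (-0.68), and Opalin, a myelin membrane protein, differed by -0.69. Of 16 astrocyte genes, 6 were lower without overlap with a median of -0.12, among them the water channel gene Aqp4 (-0.68). Of 16 endothelial genes, 4 were lower without overlap with a median of -0.23, among them Kdr, the VEGF receptor (-0.65). Of 16 meningeal and collagen genes, 4 were lower (median -0.26, but -0.08 without NKP 2), with Ogn, an extracellular matrix protein, at -0.62. Of 12 oligodendrocyte precursor genes, 2 were higher (Pdgfra, 0.78, and Cspg4, 0.51) and 1 lower (median -0.09). Of 15 inhibitory interneuron genes, 1 was higher and 1 lower (median -0.26, but 0.14 within NKP and -0.12 without AKP 2), where the higher one, the neuropeptide gene Sst, was at 11.6 to 13.3 CPM against 24.9, 49.8 and 36.5 CPM. Of 9 red blood cell genes 1 was lower (median -0.28, but 0.02 without NKP 3, -0.07 without NKP 1 and -0.55 without NKP 2), and of 12 choroid plexus genes 1 was higher, Otx2 (0.74). Over all genes 10.1% were higher and 8.79% lower without overlap. The counts of 1 or 2 in the oligodendrocyte precursor, interneuron, red blood cell and choroid plexus lists were near these shares. They are not read as results about those cells.

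**Figure D3:**
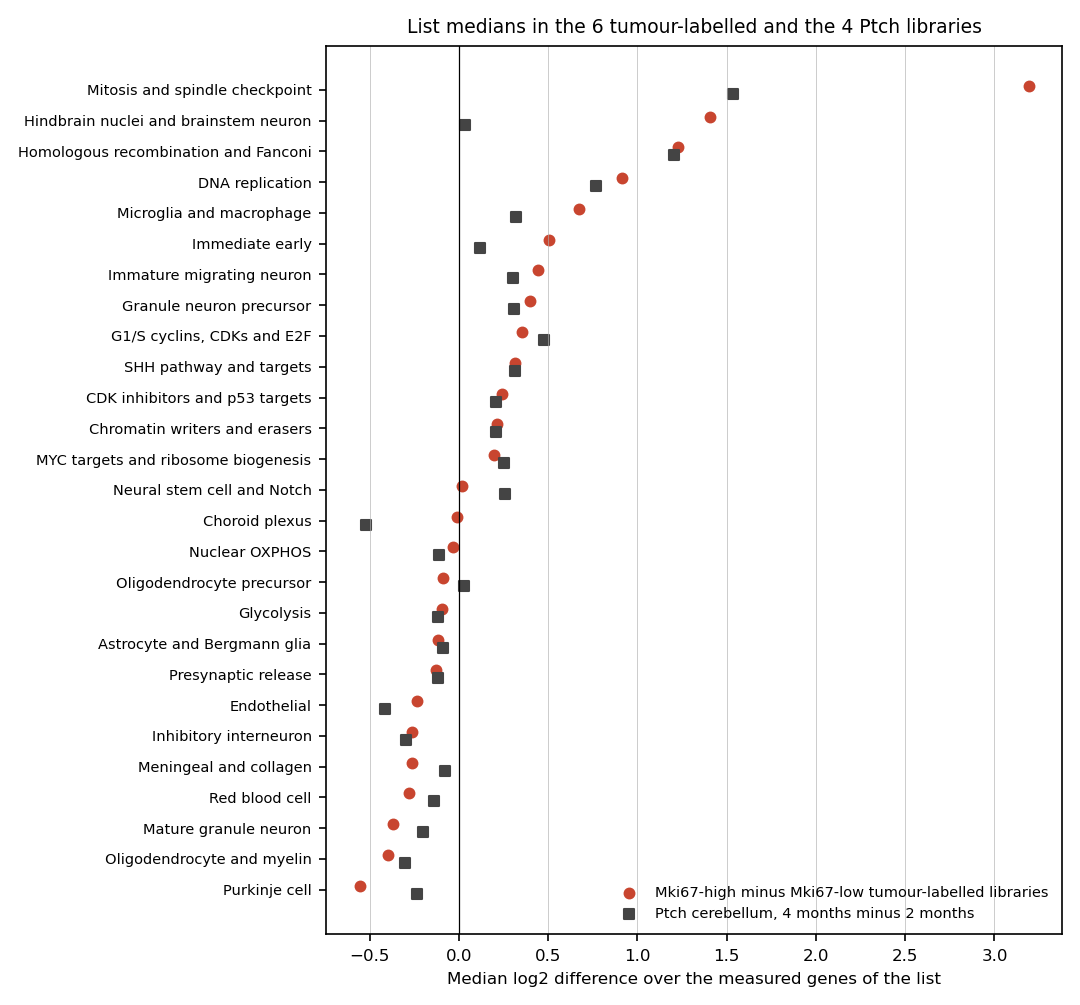
Median log2 difference of 27 gene lists, as Mki67-high minus Mki67-low in the 6 tumour-labelled libraries (red circles) and as 4 months minus 2 months in the 4 Ptch libraries (dark squares). The mitosis list is highest in both (3.19 and 1.54), and the mature granule neuron (-0.37 and -0.20) and Purkinje cell (-0.56 and -0.24) lists lie below 0 in both.

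Markers of other cells also moved with the split, and their part in the results above was not tested. The microglia and macrophage sum was 351 to 359 CPM on the low side, 368 CPM in NKP 3 and 763 and 626 CPM in AKP 2 and AKP 3. Of its 17 genes 8 were higher without overlap, with a median of 0.67, which was 0.04 within the NKP libraries, 0.42 without AKP 2, and 0.91 without NKP 3 and AKP 3. Lyz2, a lysozyme of myeloid cells, read 14.8 to 21.8 CPM on the low side and 22.4, 92.0 and 73.6 CPM on the high side. A list of hindbrain and brainstem neurons, with 10 of 28 genes measured, summed to 64.8 to 78.1 CPM on the low side, 92.7 CPM in NKP 3 and 235 and 207 CPM in AKP 2 and AKP 3. The median of the measured genes was 1.40 (1.72 without NKP 3 and AKP 3). It was 0.99 among genes with at least 10 counts in all 6 libraries. Of the 10 measured, 2 had passed the filter only through the Mki67-high side and could only be higher. Among the genes of the list Hoxb6, Hoxb8 and Mnx1 were at 0 in all 6 libraries.

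Within that list the serotonin neuron genes stood out. Slc6a4, the serotonin transporter, read 0.326, 0.165 and 0.164 CPM in NKP 1, NKP 2 and AKP 1 and 5.03, 26.0 and 22.1 CPM in NKP 3, AKP 2 and AKP 3 (log2 difference 5.71). With 4, 3 and 2 counts on the low side, it passed the filter only through the high side and could only be higher. The Ptch libraries had 7.41 to 11.5 CPM, between NKP 3 and the AKP pair. Tph2, the enzyme that makes serotonin in neurons, was at 0.717 to 1.15 CPM against 6.78, 45.6 and 35.2 CPM (4.52). Fev, the transcription factor of serotonin neurons, had too few counts to pass the filter. It was at 0 to 0.245 CPM on the low side and at 0.164, 3.47 and 1.91 CPM on the high side, so for Fev NKP 3 overlapped the low side. Dbh, which makes noradrenaline, was at 1.79 to 2.38 CPM against 9.84, 7.87 and 6.78 CPM, with NKP 3 highest (1.90).

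The strongest differences in the other direction were in genes outside all lists. Of the 62 lower genes, none was in a list, and 9 had passed the filter only through the low side. Prl, prolactin of the anterior pituitary, read 4.16, 39.5 and 6.31 CPM in NKP 1, NKP 2 and AKP 1 and 0.601, 0.144 and 1.105 CPM in NKP 3, AKP 2 and AKP 3 (log2 difference -4.23). Gh, pituitary growth hormone, was at 19.8, 36.1 and 21.7 CPM against 2.13, 2.96 and 7.88 CPM (-2.74), and at 0 in Ptch 1 and Ptch 2. NKP 2 was highest for both hormones. It was also highest for the choroid plexus sum (4156 CPM, against 1761 to 3045 CPM in the other 5), for which the sides overlapped. Xist, the RNA that silences an X chromosome, was at 11.9, 74.6 and 15.0 CPM against 0.437, 0.433 and 5.38 CPM (-4.43), in libraries that all held Y-linked RNA.

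Among other lower genes, Eps8l1, an actin regulator, was at 14.0 to 15.1 CPM against 5.14, 0.144 and 4.57 CPM (-3.10), and its relative Eps8l2 differed by -1.03. Sycp1, of the meiotic synaptonemal complex, differed by -1.03 and Klhl4 by -1.07. The pseudogene Rpl34-ps1 differed by -3.27, but its reads cannot be told apart with certainty from those of its parent gene.

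**Figure D4:**
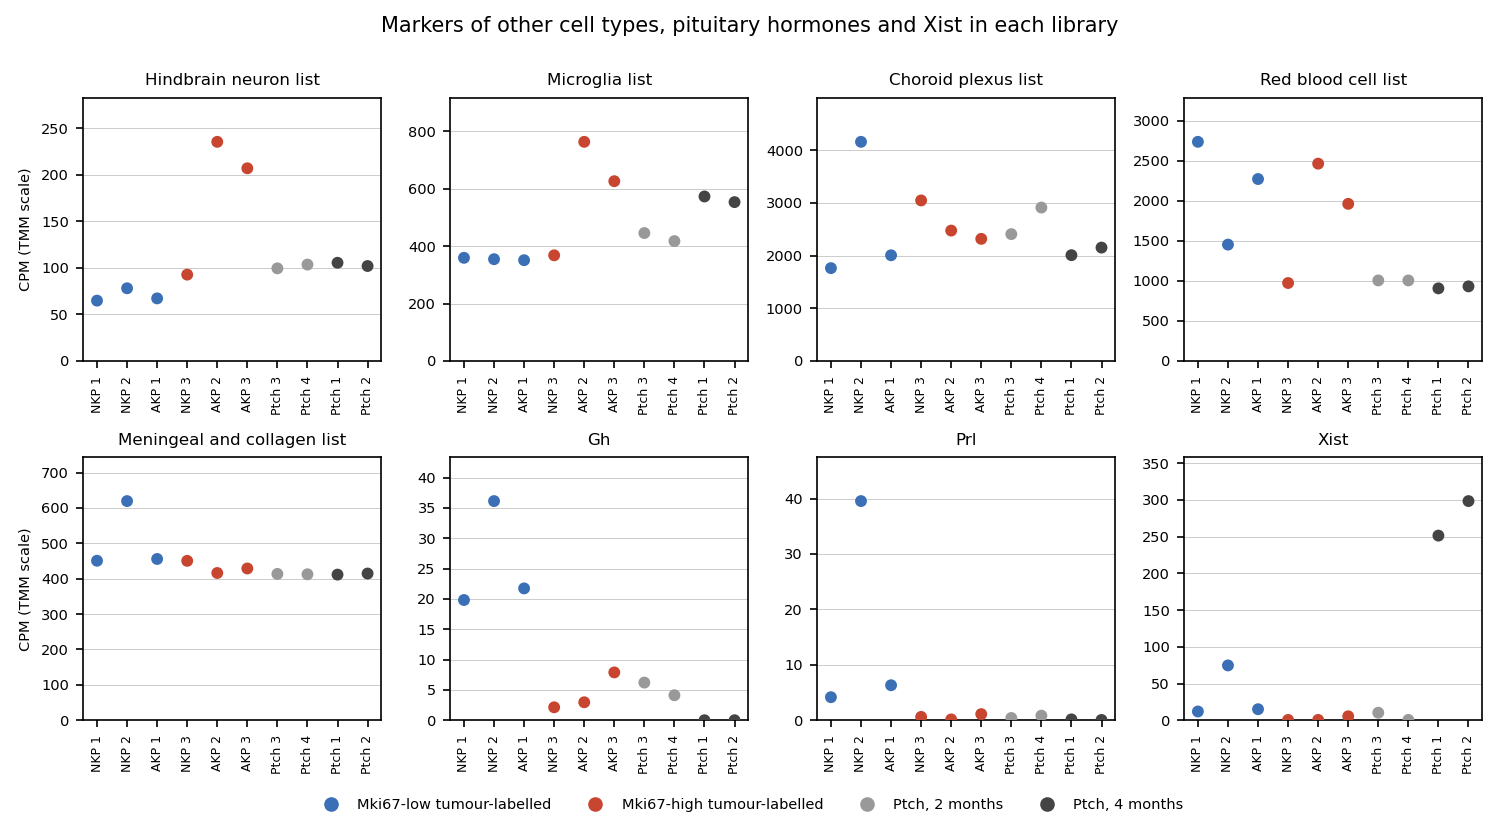
Summed CPM of 5 marker lists and CPM of Gh, Prl and Xist in each library (linear axes from 0), with 1 point per library, Mki67-low in blue, Mki67-high in red and Ptch in grey (2 months) and dark grey (4 months). Hindbrain neuron and microglia sums are highest in AKP 2 and AKP 3, and NKP 2 is highest for choroid plexus, meningeal markers, Gh and Prl.

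The split was repeated within each genotype, which uses separate libraries for NKP (NKP 3 against NKP 1 and NKP 2) and AKP (AKP 2 and AKP 3 against AKP 1). At least 2-fold higher were 385 of 15250 genes within NKP and 903 of 15250 within AKP. They shared 256, which is 66.5% of the NKP and 28.3% of the AKP genes, and 16 of the NKP genes were at least 2-fold apart in the opposite direction within AKP. Lower genes numbered 147 and 299 of the same 15250 and shared 28, or 19% of the NKP and 9.36% of the AKP genes. Each of these percentages is to be read against the share of all 15250 genes that differed in that direction within the other genotype. Since the same marker gene split both genotypes, the overlap of higher genes is a description too.

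The mitosis median was 1.98 within NKP and 3.67 within AKP, and that of DNA replication 0.50 and 1.12. Medians of mature granule (-0.11 against -0.55), Purkinje (-0.23 against -0.67) and astrocyte genes (-0.10 against -0.25) were smaller in size within NKP than within AKP. The presynaptic median was 0.03 within NKP. Oligodendrocyte (-0.57 against -0.42), red blood cell (-1.02 against -0.07), endothelial (-0.29 against -0.26) and meningeal medians (-0.20 against -0.17) were larger in size within NKP. Top2a differed by 3.18 within NKP, and Nhlh1 by 4.50. By age, the mitosis median was 2.81 among the 4-month libraries and 3.80 for AKP 2 against AKP 1, the only pair at 2 months. The hindbrain list median was 0.28 within NKP and 1.61 within AKP, so the hindbrain genes differed more within AKP than within NKP, which was not tested. Fos, the immediate early transcription factor, was higher within both genotypes (1.79 in NKP and 0.94 in AKP).

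**Figure D5:**
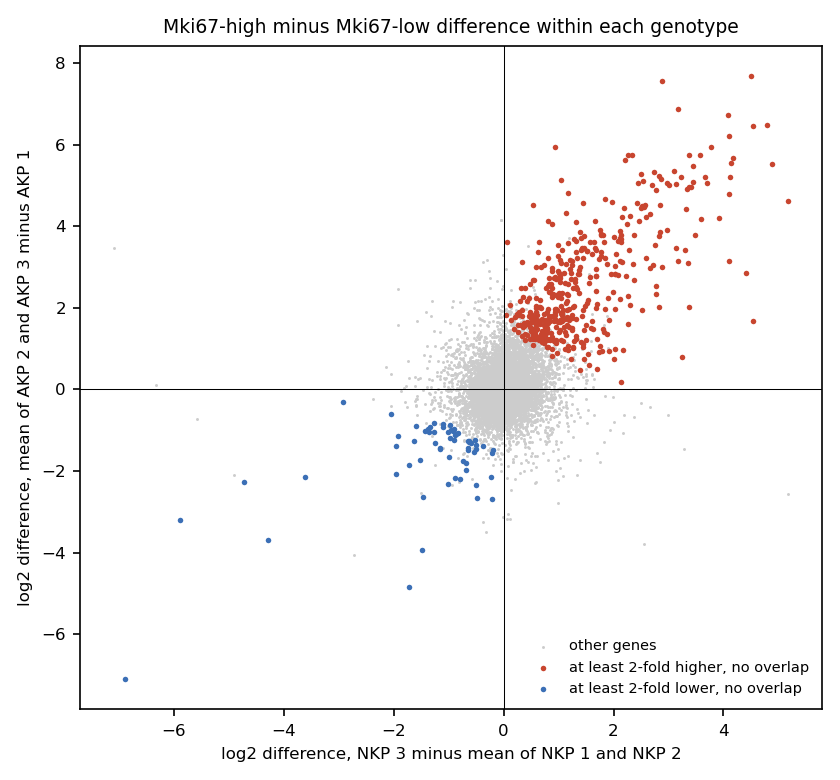
Each point is 1 gene, with its log2 difference within NKP (NKP 3 minus the mean of NKP 1 and NKP 2) on the x axis and within AKP (mean of AKP 2 and AKP 3 minus AKP 1) on the y axis. Red points are the 432 genes at least 2-fold higher on the Mki67-high side without overlap, blue points the 62 lower ones, and grey points all others.

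The 4 Ptch libraries took no part in the split and differ by a label, their age, so the same genes could be tested there. Most genes of division were higher at 4 months than at 2 months, precursor and early neuron genes were higher in part, and most Purkinje and mature granule genes were lower. Of 15597 tested genes, edgeR's quasi-likelihood test with Benjamini-Hochberg adjustment called 2276 higher (14.6%) and 2255 lower (14.5%). Of the 432 genes higher on the Mki67-high side, 421 were tested and 306 of them rose at 4 months (72.7%), 6 fell (1.43%), and their median log2 change was 1.11. Of the 62 lower genes, 51 were tested, 3 rose (5.88%) and 10 fell (19.6%), with a median of -0.22.

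By list, 42 of 44 mitosis genes rose and 1 fell (median 1.54), and 41 of 43 DNA replication genes rose and none fell (0.77). In the precursor list 11 of 20 rose and 3 fell (0.31), and in the immature neuron list 13 of 22 rose and 2 fell (0.30). Of SHH genes, 11 of 20 rose and 2 fell (0.32), Ptch1 falling while Gli1 rose. Of Purkinje genes 11 of 15 fell and none rose (-0.24), of mature granule genes 14 of 21 fell and 1 rose (-0.20), and of oligodendrocyte genes 13 of 18 fell and 1 rose (-0.30). In the microglia list 9 of 17 rose and 1 fell (0.32). The hindbrain list did not share this, with 1 of 9 higher and 2 lower (0.04).

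Top2a rose from 26.4 and 22.7 CPM in Ptch 3 and Ptch 4 to 79.6 and 81.6 CPM in Ptch 1 and Ptch 2 (log2 change 1.69, SE 0.0852, edgeR adjusted p = 9.08e-20). Cdk6 rose from 14.3 and 12.2 to 59.5 and 68.9 CPM (2.25, SE 0.102, edgeR adjusted p = 1.25e-20). Both genes had all Ptch libraries above all Mki67-low libraries. Nhlh1 rose from 22.3 and 18.3 to 70.1 and 72.3 CPM (1.78, SE 0.0915, edgeR adjusted p = 1.62e-19), and Atoh1 from 6.92 and 5.70 to 14.8 and 16.4 CPM (1.28, SE 0.169, edgeR adjusted p = 7.12e-08). Mycn rose by 1.39, Insm1 by 1.53, Sfrp1 by 1.34 and Gli1 by 0.91, with edgeR adjusted p from 1.79e-20 to 2e-09. Gabra6 fell from 453 and 440 to 221 and 235 CPM (-0.99, SE 0.0503, edgeR adjusted p = 1.1e-19). Ptch1 fell from 100.4 and 103 to 74.1 and 77.2 CPM (-0.45, SE 0.0663, edgeR adjusted p = 8.76e-07).

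Slc6a4 (0.32, edgeR adjusted p = 0.185) and Tph2 (0.33, edgeR adjusted p = 0.0858) did not pass in this test, and Fos, higher in the split, fell by 0.51 (edgeR adjusted p = 0.00147; 0.065 without Ptch 4). Calb1 fell by 0.37, but by length and GC correction its change was 0.002686. Age cannot be told apart here from Y-linked RNA, which was near 0 in both 4-month libraries, and with 2 libraries an age, p reflects only how far these libraries spread, which may be technical. When all 10 libraries were fitted together, 9 genes were called higher and 8 lower, and none of the genes named here passed.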

How the data were processed

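RNA from 10 mouse libraries was prepared with a kit that does not mark strand (TruSeq RNA v2), per the labels' protocols. The deposited values are RSEM expected counts per gene symbol, rounded by the authors; Trim Galore, STAR, RSEM and GRCm38 are named in the submitters' processing notes, with versions not given in the sources used here. RSEM estimates how reads divide among near-identical genes, and antisense or overlapping genes cannot be told apart. Groups came from the labels. The table held 39769 genes.

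The 6 medulloblastoma-labelled libraries were split by Mki67 over genes with at least 10 counts in 3 of them. Differences are of mean log2 CPM (TMM, prior count 1), with no test. Ptch ages were tested with edgeR 4.0.16 (R 4.3.3, limma 3.58.1), robust quasi-likelihood, filterByExpr, adjusted p below 0.05. This test and the split calculation were tested on simulated data. Library totals were 12300430 to 19348991 counts, and counting error, about the square root of a count, limits genes near the filter. The SE is the size of the log2 change over the square root of F.

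The members and the 27 gene lists were chosen with earlier results of these data known. Named genes were the 2 (4 for mitosis, replication, SHH, precursor and immature neuron lists) members of each list with the largest non-overlapping difference and a mean count of at least 20, the 8 largest rises and 8 largest falls with a mean count of at least 100, and Kmt2d, Ptch1, Gli1 and Atoh1. Bub3, Pttg1, Anln, Mcm6, Pcna, Ccnd1, Ccnd2, Cdk1, Cdkn2b, Smo, Gas1, Boc, Cdon, Pdlim3, Mdm4, Zic1, Zic2, Zic5, Pax6, Msi1, Prom1, Dbh and Fev were named after their values were seen. Some genes that this rule selects are not reported here. Alternatives covered scaling, filters, prior count, DESeq2 1.42.0, sex label, length and GC, and leaving libraries out.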

Additional observations from a re-analysis of the deposited data

Results flagged for a closer look

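Ptch1 moved in opposite directions in the genotypes. Its difference in mean log2 CPM, Mki67-high minus Mki67-low, was 0.256208 within NKP and -0.59 within AKP. Within NKP, NKP 3 (110 CPM) was above NKP 1 (85.4 CPM) and NKP 2 (100.03 CPM). Within AKP, AKP 2 (55.5 CPM) and AKP 3 (65.5 CPM) were below AKP 1 (90.5 CPM). The summed CPM of the CDK inhibitor and p53 target list was lower in NKP 3 (491 CPM) than in NKP 1 and NKP 2 (500.4 and 514 CPM). The log2 ratio of mean sums was -0.0451647. It was higher in AKP 2 and AKP 3 (628 and 585.5 CPM) than in AKP 1 (527 CPM), a log2 ratio of mean sums of 0.20. Neither difference between genotypes was tested. Among 98 quantities, no Ptch library was an outlier by Dixon's criterion.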

How the results depend on the processing

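Counts of genes in the split moved with the libraries compared and with the filter on low counts. Higher genes, 432 in all, numbered 715 with no filter, 223 with at least 10 counts in all 6 libraries, 902 in AKP alone, 1049 at 2 months alone and 934 without NKP 3 and AKP 3. Lower genes, 62 in all, numbered 254, 19, 283, 481 and 427 under the same settings, 145 in NKP alone, 100 at 4 months alone and 29 with prior count 5. Leaving out 1 library gave 387 to 726 higher and 84 to 176 lower genes, with 726 and 176 without NKP 3, 468 and 103 without NKP 1, and 555 and 101 without NKP 2. Other scalings gave 438 to 474 higher and 47 to 60 lower genes, and length and GC correction 449 and 57. In the Ptch comparison DESeq2 called 1415 higher and 1460 lower genes, the fit of all 10 libraries 9 and 8, and leaving out 1 library 1745 to 1869 and 1683 to 1838. Its age difference turned sign for Rpl34-ps1 (0.04645 with the sex label as covariate, -1.157 to 2.366 leaving out 1 library, 2.366 without Ptch 3), Otx2 (-0.005434 by length and GC correction, -0.03638 without Ptch 1, -0.00296 without Ptch 3), Aqp4 (0.12 by length and GC correction, -0.1055 to 0.01412 leaving out 1 library, 0.01412 without Ptch 3), Calb1 (0.002686 by length and GC correction), Cspg4 (-0.1542 without Ptch 2, up to 0.2124 without Ptch 1) and Opalin (-0.2769 without Ptch 3 to 0.02678 without Ptch 4). The cause was not tested. Of the list medians recomputed, 423 moved by less than the pooled SD of libraries within the 2 sides, and 63 moved further. The sides mix genotypes and ages, so this SD is not a spread between replicates and can be wide. No paired analysis was possible because the Ptch ages share no replicate number (1 and 2 against 3 and 4) and the split has no test.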

Other observations

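Genes of growth and chromatin differed less than those of division. Of 25 MYC target and ribosome biogenesis genes, 13 were higher on the Mki67-high side without overlap (3 at least 2-fold), none was lower, and the median log2 difference was 0.19. Mycl, a MYC family factor, was at 6.80 to 9.54 CPM on the low side and 13.1, 33.4 and 29.1 CPM on the high side. Of 24 chromatin writers and erasers, 9 were higher and 1 lower without overlap, with a median of 0.21. Ezh2, the histone H3 lysine 27 methyltransferase, was at 3.94 to 7.09 CPM against 13.1, 21.0 and 18.7 CPM (1.61). Kdm6a, an X-linked H3 lysine 27 demethylase that works with KMT2D, was the lower one, at 16.8 to 26.3 CPM against 16.0, 9.89 and 12.2 CPM (-0.65).

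Energy genes mostly overlapped between the sides, as did most of all genes (12364 of 15250). Of 40 nuclear genes of oxidative phosphorylation, 39 overlapped (median -0.03), and of 19 glycolysis genes 18 overlapped (median -0.09). The oxidative phosphorylation median changed sign with the libraries used, at -0.23 within NKP and 0.22 without NKP 3 and AKP 3. In the immediate early list 7 of 15 genes were higher without overlap and none lower (median 0.50), while in the Ptch comparison 1 rose and 4 fell.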
